A study of Homo sapiens with 4 samples.

Results

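The EGFR family consists of receptor tyrosine kinases and of the growth factors that bind them. The 8 genes described here were the receptors EGFR, ERBB2 and ERBB3 and the ligands AREG, EREG, HBEGF, TGFA and BTC, which were chosen by a list of symbols from the 26726 genes listed. All 8 passed the filter on low counts that left 15104 genes for testing. RNA-seq was performed on HN12, a cell line of head and neck squamous cell carcinoma (HNSCC), in 2 groups of 2 libraries. The KO group carries the genotype ATAD3A knockout, made with CRISPR/Cas9, and the WT group is the parental HN12 line. No treatment or time point is given for either group, both were grown in medium with serum, and the libraries of a group came from independent duplicate cultures. KO clones were expanded from single cells, and which clone or clones gave the RNA is not stated, so that a difference between a clone and the parental population cannot be told apart from an effect of the knockout. The comparison asks how mRNA levels differ between HN12 cells with and without ATAD3A, a mitochondrial ATPase.

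EGFR, ERBB2, ERBB3 and ERBB4 are receptors of the cell surface that pair on ligand binding, phosphorylate each other and feed the RAS-RAF-MEK-ERK and PI3K-AKT pathways. AREG, EREG, HBEGF, TGFA, BTC, EGF and EPGN bind EGFR, and they are made as membrane-anchored precursors that proteases of the ADAM family cut loose. ERBB2 has no known ligand of its own, ERBB3 has a weak kinase and works through its partners, and neuregulins bind ERBB3 and ERBB4. EGFR is often abundant in HNSCC and is the target of the antibody cetuximab in this disease.

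Counts on genes ranged from 13569971 to 18943547 per library, with the lowest total in WT replicate 2 and the highest in KO replicate 1. ATAD3A, the targeted gene, was at 38.0 and 29.9 CPM in the KO libraries and at 116 and 106 CPM in the WT libraries, where CPM scales counts to a library total of 1000000 after TMM normalization. Its log2 fold change, KO minus WT, was -1.70 (SE 0.091, adjusted p = 1.53e-17 by the quasi-likelihood test of edgeR, adjusted by Benjamini-Hochberg over the genes tested), so the targeted mRNA was lower in KO cells and not absent. ATAD3B, a close paralog with which it can share reads, was higher, at 157 and 142 CPM against 72.3 and 81.0 CPM. For ATAD3A protein, the paper reports complete loss by Western blotting in the KO clones it used, and protein was not measured here. All 10 chosen markers of squamous epithelium were listed in these libraries. 6 of them rose and 4 fell in KO cells, and their summed level went from 1069 and 1082 RPKM in WT to 2259 and 2238 RPKM in KO. The rise of the sum came mainly from the keratins KRT5 and KRT14, named after their values were seen. The 4 that fell were TP63, CDH1, EPCAM and DSP, at log2 fold changes of -0.28, -0.24, -0.34 and -0.49. RPKM is the count divided by gene length in kilobases and by the library total, on the scale of CPM. The listed markers of fibroblasts, leukocytes and endothelium summed to between 0.0408 and 2.58 RPKM in a library, and DCN, LUM, CD3E, LYZ and PECAM1 were not listed.

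Among the 8 family genes, 5 were higher in KO cells and 0 were lower by edgeR at an adjusted p under 0.05. Of all genes tested, 20.4% were higher and 19.1% were lower at the same threshold. Higher genes made up 51.5% of those called, but 41.0% with library totals alone and 42.6% and 42.5% with limma on log2(RPKM + 1) and log2(RPKM + 0.1), which use no TMM factors. The 5 members were 4 of the 5 ligands, AREG, TGFA, EREG and HBEGF, together with the receptor ERBB2. EGFR, ERBB3 and BTC did not pass. At an unadjusted p under 0.05 the counts were also 5 and 0, and DESeq2 and limma likewise called 0 of the 8 lower. With DESeq2, library totals alone or limma on RPKM only 3 were called higher, AREG, TGFA and EREG. The median log2 fold change of the 8 genes was 0.25, against -0.0042 over all genes tested. Both KO libraries lay above both WT libraries for those 5 genes, which held for 34.1% of all genes tested. In RNA of whole cultures, more or fewer cells that express a gene and more or less RNA per cell cannot be told apart.

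**Figure D1:**
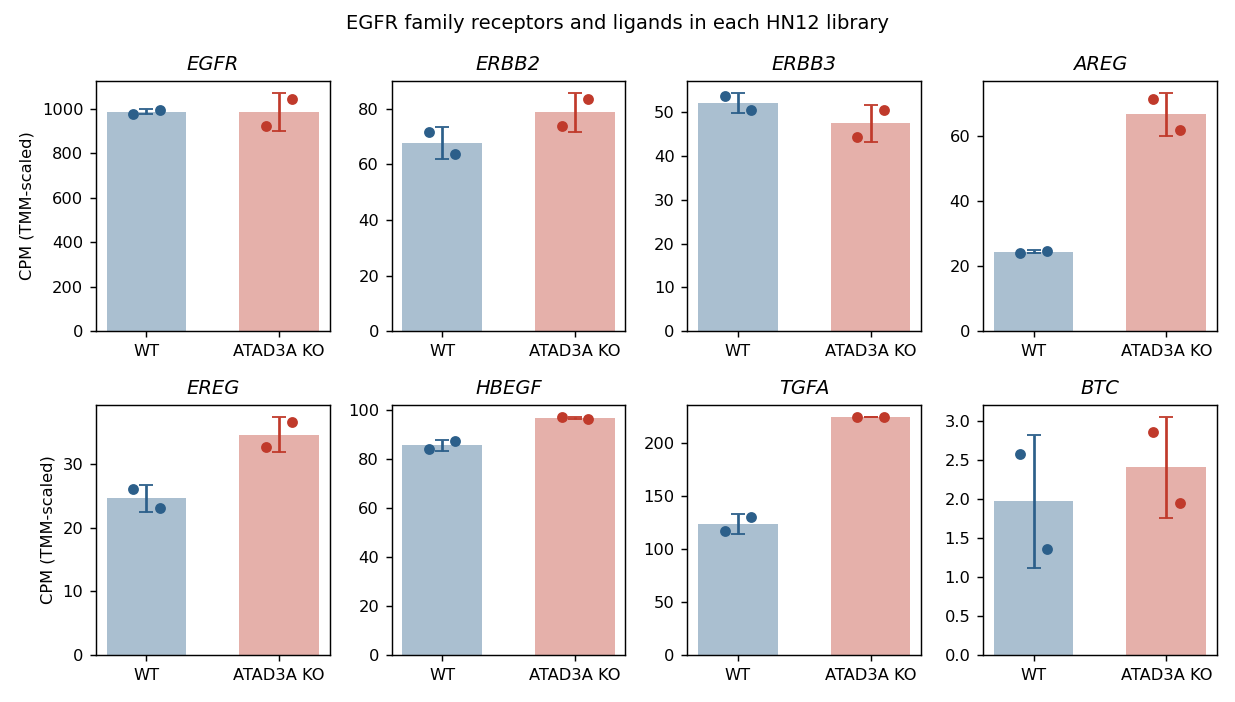
Level of each of the 8 family genes in CPM after TMM scaling, with a point for each library, a bar for the group mean and an error bar of 1 SD (n = 2 libraries per group); each vertical axis starts at 0 and has its own scale. The KO and WT points of AREG, TGFA, EREG, HBEGF and ERBB2 are separate with KO above, those of EGFR and BTC overlap, and for ERBB3 the KO points lie below, by a very small margin at the nearest pair.

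AREG (ENSG00000109321, chromosome 4) encodes amphiregulin, a ligand of EGFR in epithelia, and changed most among the 8 genes. It was at 71.3 CPM in KO replicate 1 and 62.0 CPM in KO replicate 2, against 24.2 CPM and 24.7 CPM in the WT replicates. Both KO libraries were thus far above both WT libraries. The difference was 2.73-fold, a log2 fold change of 1.45 (SE 0.099, 95% interval 1.25 to 1.65, adjusted p = 1.48e-14 by edgeR). It held rank 332 from the top among the 15104 log2 fold changes, so that 97.8% of genes had a lower one. In the annotation used by the authors, a near-identical copy, AREGB, is listed apart and had 13 and 0 counts in KO and 8 and 5 counts in WT. Reads that fit both copies could be split or lost in counting, and with the copy added AREG stood at 72.0 and 62.0 CPM in KO and at 24.7 and 25.1 CPM in WT.

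TGFA (ENSG00000163235, chromosome 2) encodes transforming growth factor alpha, a ligand of EGFR that many squamous carcinomas produce. Its level was 225 CPM in each KO library, against 117 and 131 CPM in the WT libraries. The KO libraries differed from each other by far less than the WT libraries did, and the groups did not overlap. TGFA was 1.82-fold higher in KO cells (log2 fold change 0.86, SE 0.063, 95% interval 0.74 to 0.99, adjusted p = 8.83e-14 by edgeR). This was rank 872 from the top, above 94.2% of genes. TGFA-IT1, an RNA annotated inside the gene, had at most 2 counts in a library.

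EREG (ENSG00000124882, chromosome 4) encodes epiregulin, which binds EGFR and ERBB4. It measured 32.6 and 36.6 CPM in KO cells and 26.1 and 23.1 CPM in WT cells. Every KO value was above every WT value, by a smaller margin than for AREG or TGFA. The ratio was 1.40-fold (log2 fold change 0.49, SE 0.11, 95% interval 0.26 to 0.72, adjusted p = 0.000625 by edgeR). With offsets for GC content and gene length in each library, the log2 fold change of EREG was 0.78.

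HBEGF (ENSG00000113070, chromosome 5) encodes heparin-binding EGF-like growth factor, which is also the receptor of diphtheria toxin. KO libraries held 97.2 and 96.5 CPM, and WT libraries held 84.1 and 87.3 CPM. The gap between groups was small but wider than the gap within either. HBEGF was 1.13-fold higher (log2 fold change 0.18, SE 0.071, 95% interval 0.033 to 0.32, adjusted p = 0.0449 by edgeR). The call was lost with DESeq2 (adjusted p = 0.120), with library totals alone, with no filter, with the replicate number as a block (adjusted p = 0.0697), with limma on RPKM and with offsets for GC content and length, where log2 fold changes lay between 0.10 and 0.19. It was also lost on leaving out any of the 4 libraries, with log2 fold changes between 0.16 and 0.20 and adjusted p between 0.0620 and 0.251.

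BTC (ENSG00000174808, chromosome 4) encodes betacellulin, which binds EGFR and ERBB4, and was the least abundant of the 5 ligands. It had 53 and 32 counts in KO and 40 and 19 counts in WT, or 2.87 and 1.95 CPM against 2.58 and 1.36 CPM. The groups overlapped. Its log2 fold change of 0.28 had a 95% interval from -0.55 to 1.12 (SE 0.41, adjusted p = 0.630 by edgeR), and it turned to -0.027 without KO replicate 1 and to -0.092 without WT replicate 2, so that no change was detectable at this depth.

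The stretches of DNA before the start sites of AREG, EREG and TGFA are shown because these are the members whose higher level in KO cells passed the threshold under all 13 alternatives. They are the 250 bases before the RefSeq start site on GRCh38.p14, in the direction of transcription, at chr4:74444886-74445135 on the plus strand for AREG, chr4:74364895-74365144 on the plus strand for EREG and chr2:70553827-70554076 on the minus strand for TGFA. Capitals mark matches to the motifs named after them.
AREG: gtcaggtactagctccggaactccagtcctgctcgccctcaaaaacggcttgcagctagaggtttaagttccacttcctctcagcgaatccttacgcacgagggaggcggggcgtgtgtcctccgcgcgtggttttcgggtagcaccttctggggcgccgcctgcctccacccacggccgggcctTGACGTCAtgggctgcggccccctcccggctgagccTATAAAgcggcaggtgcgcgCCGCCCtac
EREG: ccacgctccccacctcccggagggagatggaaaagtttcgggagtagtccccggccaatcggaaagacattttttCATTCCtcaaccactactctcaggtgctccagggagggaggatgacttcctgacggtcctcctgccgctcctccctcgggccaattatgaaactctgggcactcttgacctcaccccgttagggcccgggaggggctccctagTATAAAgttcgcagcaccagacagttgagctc
TGFA: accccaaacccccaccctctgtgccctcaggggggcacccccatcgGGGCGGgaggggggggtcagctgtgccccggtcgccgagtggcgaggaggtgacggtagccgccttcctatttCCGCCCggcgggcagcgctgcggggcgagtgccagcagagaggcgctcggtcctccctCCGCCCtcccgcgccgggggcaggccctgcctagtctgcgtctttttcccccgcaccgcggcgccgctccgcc
Windows of 300 bases, these 250 bases and the 50 after the start, were matched by symbol for 7 of the 8 members, with 9 windows in all since EGFR and TGFA have more than 1, and not for ERBB3. Each was searched on both strands for 6 motifs, the cyclic AMP response element (TGACGTCA), the AP-1 element (TGANTCA), the core of the hypoxia response element (ACGTG), the SP1 box (GGGCGG), the TEAD core (GGAATG) and the TATA box (TATAAA). The AREG window held a cyclic AMP response element 65 bases before the start, a TATA box 29 bases before it and an SP1 box 9 bases before it. Only AREG among the 7 members held the cyclic AMP response element, which occurs in 1.84% of 34796 windows of the same length. EREG held a TATA box 32 bases before the start, a TEAD core 175 bases before it and a hypoxia response core 38 bases after it, outside the printed stretch. The TATA box occurs in 11.6% of windows, the TEAD core in 14.0% and the hypoxia response core in 21.4%. The first TGFA window held 4 SP1 boxes, of which 1 lies after the start, and no TATA box, and its GC content was 75.3% against 66.3% for AREG and 57.7% for EREG. SP1 boxes occur in 44.9% of windows, and HBEGF held 5. AP-1 elements, found in 7.73% of windows, were matched only in the ERBB2 window (chr17:39687844-39688143) and in the second EGFR window (chr7:55109589-55109888). The first EGFR window (chr7:55018767-55019066) held SP1 boxes and none of the other motifs. Other start sites that a gene may have, such as ERBB2, were not searched. No matches in the 3 printed stretches overlapped. A match describes letters, and binding was not measured.

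EGFR (ENSG00000146648, chromosome 7) was by far the most abundant receptor, and its groups overlapped. It was at 923 and 1045 CPM in KO libraries and at 978 and 995 CPM in WT libraries. Both WT values lay between the KO values. Its log2 fold change was -0.0037 (SE 0.052, 95% interval -0.11 to 0.10, adjusted p = 0.967 by edgeR). The sign turned with no filter (0.0074), when each library had to hold 10 counts or more (0.0013), without KO replicate 1 (0.083) and without WT replicate 2 (0.0092), all without passing. With offsets for GC content and gene length it was 0.15 and passed (adjusted p = 0.00230). EGFR-AS1, an antisense RNA of the locus, had 36 to 61 counts in a library, and since the use of strand in counting is not given in the sources used here, reads of the pair may be mixed.

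ERBB2 (ENSG00000141736, chromosome 17), the receptor known as HER2, was modestly higher in KO cells. Its level was 73.8 and 83.7 CPM in KO against 71.7 and 63.7 CPM in WT. KO replicate 1 and WT replicate 1 were close together, although the groups did not overlap. The change was 1.16-fold (log2 fold change 0.22, SE 0.082, 95% interval 0.049 to 0.38, adjusted p = 0.0345 by edgeR). This call ended with DESeq2 (adjusted p = 0.116), with library totals alone, with limma on RPKM and with offsets for GC content and length, where log2 fold changes lay between 0.13 and 0.21, and also without KO replicate 2 (0.12, adjusted p = 0.300) and without WT replicate 2 (0.13, adjusted p = 0.369).

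ERBB3 (ENSG00000065361, chromosome 12), the receptor that binds neuregulins and recruits PI3K, was at 44.5 and 50.5 CPM in KO and at 53.8 and 50.5 CPM in WT. KO replicate 2 and WT replicate 2 were nearly equal, with both KO values below both WT values, as for 34.0% of all genes tested. The log2 fold change of ERBB3 was -0.14 (SE 0.092, 95% interval -0.32 to 0.049, adjusted p = 0.251 by edgeR), below 0 under all 13 alternatives and past the threshold under none of them. It was -0.047 without KO replicate 1, -0.083 without WT replicate 1 and -0.23 without KO replicate 2.

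**Figure D2:**
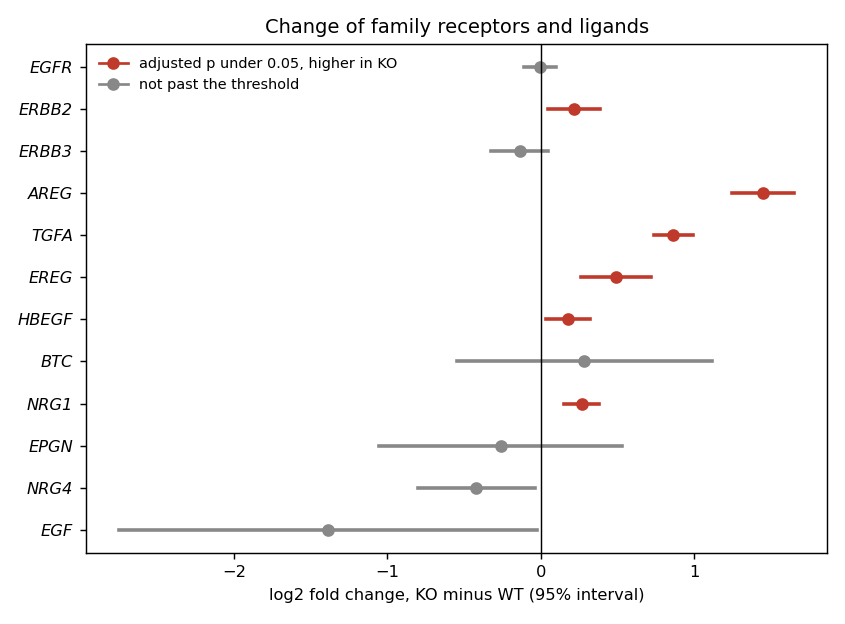
Log2 fold change (KO minus WT, horizontal axis) of the 8 family genes and of 4 further ligands, with the 95% interval from the edgeR fit as a line. Intervals of AREG, TGFA and EREG lie well above 0, and those of HBEGF, ERBB2 and NRG1 lie above 0 but closer to it. The interval of EGFR is narrow around 0, and those of BTC, EPGN and EGF are wide. Those of NRG4 and EGF lie below 0 with upper ends near it, and neither gene passed the adjusted threshold.

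The remaining receptor and ligands of the family were taken as a list of 7 genes, of which 4 had enough counts for a test. Like the lists below, it was chosen with earlier results of these data known. NRG1, neuregulin 1, rose from 307 and 317 CPM in WT to 359 and 392 CPM in KO (log2 fold change 0.27, SE 0.056, adjusted p = 0.000189 by edgeR). NRG1 was the only gene of this list that passed, and 0 of the list passed in the other direction, where 2 had an unadjusted p under 0.05 and DESeq2 called 0. NRG4, a ligand of ERBB4, was at 7.26 and 10.2 CPM in KO and at 10.6 and 12.7 CPM in WT (log2 fold change -0.42, adjusted p = 0.0728 by edgeR). Its log2 fold change lay between -0.19 without KO replicate 1 and -0.68 without KO replicate 2, where it passed (adjusted p = 0.0101 by edgeR), as it did with library totals alone (-0.49). EGF itself had 8 and 6 counts in KO and 13 and 18 counts in WT, too few to place its log2 fold change of -1.39 more closely than between -2.75 and -0.026 (adjusted p = 0.10 by edgeR). EPGN, epigen, was at 2.17 and 1.95 CPM against 2.71 and 2.23 CPM (adjusted p = 0.639 by edgeR). ERBB4, NRG2 and NRG3 had at most 5 counts in any library and were not tested.

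Per length, the order of the receptors was the same in both groups. In WT cells EGFR was at 103 ± 1.61 RPKM (SD, n = 2), ERBB2 at 14.1 ± 1.14 RPKM, ERBB3 at 9.03 ± 0.368 RPKM and ERBB4 at 0.0206 ± 0.0138 RPKM. In KO cells the levels were 97.8 ± 8.75 RPKM for EGFR, 15.6 ± 1.42 RPKM for ERBB2, 7.83 ± 0.723 RPKM for ERBB3 and 0.0182 ± 0.00498 RPKM for ERBB4. No neighbours in this order overlapped. EGFR exceeded ERBB2 by a ratio of 6.28 and 6.27 in the KO libraries and of 6.84 and 7.85 in the WT libraries, and its mean RPKM over the 4 libraries was above that of 96.6% of genes tested.

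The order of the ligands differed between the groups. In WT cells NRG1 led at 102 ± 2.53 RPKM, followed by HBEGF at 36.8 ± 1.07 RPKM, TGFA at 29.4 ± 2.41 RPKM and AREG at 20.2 ± 0.363 RPKM, and no neighbours in that order overlapped. In KO cells NRG1 at 117 ± 7.51 RPKM was followed by AREG at 52.4 ± 5.07 RPKM and TGFA at 51.0 ± 0.128 RPKM, whose ranges overlapped, and then by HBEGF at 39.6 ± 0.114 RPKM. AREG as counted thus went from below HBEGF in both WT libraries to above it in both KO libraries. Reads shared with AREGB could be lost in counting, so the level of AREG beside other ligands may be too low in both groups. The ratio of AREG to HBEGF was 0.553 and 0.544 in WT and 1.41 and 1.24 in KO. EREG, NRG4, EPGN, BTC and EGF followed in this order in both groups, from 5.46 ± 0.453 RPKM for EREG down to 0.224 ± 0.0681 RPKM for EGF in WT and from 7.31 ± 0.610 RPKM down to 0.0798 ± 0.00946 RPKM in KO.

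**Figure D3:**
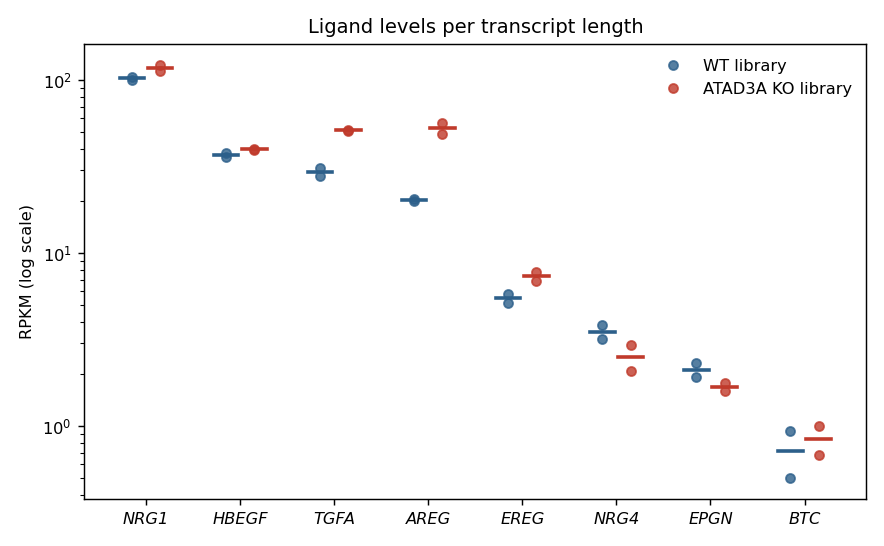
RPKM (log scale, vertical axis) of 8 ligands, ordered by their WT mean, with a point for each library and a line for the group mean (n = 2); EGF, NRG2 and NRG3, the lowest 3, are not drawn. AREG and TGFA lie below HBEGF in WT cells and above it in KO cells, where AREG is drawn as counted, without reads that may be lost to its copy AREGB.

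Summed per length, the 5 ligand members came to 154.5 and 147.9 RPKM in KO and to 90.4 and 94.8 RPKM in WT. The 3 receptor members came to 113.5 and 128.9 RPKM in KO and to 125.9 and 126.0 RPKM in WT, where the groups overlap. AREG and TGFA together made up most of the difference in ligands, with 106.9 and 99.9 RPKM in KO against 47.7 and 51.6 RPKM in WT. AREG held 36.3% and 33.0% of the ligand sum in KO and 22.0% and 21.6% in WT, while the share of HBEGF was 25.7% and 26.7% in KO against 39.9% and 39.6% in WT. TGFA held between 30.7% and 34.5% in every library. These sums were set by the rule for the members and were not tested. If reads shared with AREGB were lost in counting, the sums and shares that hold AREG are too low for it.

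Of 9 tested genes that act in the release of the ligands, 3 rose, 2 fell and 4 did not pass, with a median log2 fold change of 0.059, beside 20.4% higher and 19.1% lower over all genes tested. TIMP3, an inhibitor of ADAM17 and other metalloproteases, had the largest change, from 9.93 and 8.33 CPM in WT to 33.3 and 35.0 CPM in KO (log2 fold change 1.90, SE 0.14, adjusted p = 5.87e-14 by edgeR). ADAM17, the main sheddase of AREG, EREG, HBEGF and TGFA, was lower at 74.2 and 84.7 CPM against 101 and 104 CPM (log2 fold change -0.37, adjusted p = 0.000126 by edgeR). RHBDF2 and FRMD8, which encode partners of ADAM17 that help it mature or stay at the surface, rose by 0.38 and 0.36 on the log2 scale (adjusted p = 0.000212 and 8.64e-05 by edgeR). ADAM10, which cuts EGF and BTC, was the other gene that fell, at 122 and 138 CPM against 155 and 153 CPM, and is named after its values were seen. ADAM9, another sheddase, and RHBDF1, the paralog of RHBDF2, had log2 fold changes of 0.12 and -0.0091 and did not pass, although ADAM9 passed without KO replicate 1. With offsets for GC content and length the calls of ADAM17 (-0.11), ADAM10 (0.019) and RHBDF2 (0.18) ended, FRMD8 was at 0.18 with its call kept, ADAM9 passed at 0.36 (adjusted p = 1.14e-08 by edgeR), while TIMP3 passed under all 13 alternatives.

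Among 17 tested adaptors and effectors that couple the receptors to signaling, 3 rose, 6 fell and 8 did not pass, with a median log2 fold change of -0.14, against 20.4% of all genes tested higher and 19.1% lower. With offsets for GC content and length 4 of them were higher and 4 were lower. PIK3CB, the catalytic subunit p110 beta of PI3K, was at 62.2 and 57.0 CPM in KO against 92.3 and 97.7 CPM in WT. PIK3CA, the subunit p110 alpha, was at 32.8 and 41.3 CPM against 64.5 and 53.0 CPM. Both fell, and each had a log2 fold change of -0.67 (adjusted p = 7.21e-09 and 2.12e-06 by edgeR), which shrank to -0.42 and -0.30 with offsets for GC content and length and still passed. SHC1, an adaptor that binds the phosphorylated receptor, rose from 111 CPM in each WT library to 147 and 149 CPM in KO (log2 fold change 0.41, adjusted p = 1.95e-06 by edgeR). VAV2, a guanine nucleotide exchange factor that active receptors phosphorylate, also rose by 0.41 on the log2 scale (adjusted p = 1.93e-06 by edgeR). GRB2, which links receptors to SOS and RAS, and the adaptor CRK had log2 fold changes of -0.14 and 0.095 and did not pass. GRB2 passed under 5 of the 13 alternatives, at -0.17 without KO replicate 2 and at up to -0.21 with library totals alone, and CRK passed at 0.19 with offsets for GC content and length.

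Of 17 genes listed as negative regulators, which act in restraint, uptake or turnover of the receptors, 4 were higher, 5 were lower and 8 did not pass. Their median was -0.10, where the shares over all genes tested were 20.4% higher and 19.1% lower. Not every gene of the list need restrain the receptors. ERRFI1, which encodes MIG6, an inhibitor that binds the EGFR kinase domain and is itself induced by EGFR signaling, rose from 93.4 and 96.5 CPM to 135 and 136 CPM (log2 fold change 0.51, SE 0.066, adjusted p = 7.42e-08 by edgeR). PTPRJ, a receptor phosphatase, fell from 34.7 and 36.8 CPM to 20.8 and 21.8 CPM (log2 fold change -0.75, adjusted p = 1.22e-06 by edgeR). The ubiquitin ligases CBL and CBLC, which mark active EGFR for degradation, went opposite ways, CBL by -0.41 and CBLC by 0.76 on the log2 scale (adjusted p = 4.51e-06 and 2.92e-05 by edgeR). With offsets for GC content and length these were -0.19 and 0.41, both still past the threshold. EPS15 and SH3KBP1, which act in the uptake of the receptor, had log2 fold changes of -0.19 and 0.034 and did not pass, although EPS15 passed at -0.26 with library totals alone and at -0.29 without WT replicate 2. DESeq2 called 3 of this list lower instead of 5.

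Of 10 tested genes listed as transcriptional output of ERK, 6 rose, 2 fell and 2 did not pass, with a median log2 fold change of 0.57. Over all genes tested, 20.4% were higher and 19.1% were lower. The paper reports less ERK phosphorylation in HN12 cells after ATAD3A knockout, and downregulation of ERK-related pathways in its RNA-seq. RNA levels of the listed genes do not measure ERK activity. DUSP4, a phosphatase that acts on ERK in the nucleus, rose from 63.1 and 69.9 CPM to 209 and 197 CPM (log2 fold change 1.61, SE 0.069, adjusted p = 2.14e-20 by edgeR). DUSP6, its cytoplasmic counterpart for ERK, rose from 96.6 and 94.8 CPM to 165 and 156 CPM (log2 fold change 0.75, adjusted p = 9.88e-12 by edgeR). SPRY4, a feedback inhibitor upstream of ERK, rose from 40.4 and 36.1 CPM to 70.3 and 68.7 CPM (log2 fold change 0.86, adjusted p = 6.12e-10 by edgeR). EPHA2, an ephrin receptor, had a log2 fold change of 0.54 (adjusted p = 1.93e-10 by edgeR). These 4 genes passed under all 13 alternatives. The genes that fell, named after their values were seen, were ETV5 and PHLDA1, at log2 fold changes of -0.50 and -0.35 (adjusted p = 0.000154 and 1.01e-06 by edgeR), the latter at -0.15 with offsets for GC content and length. SPRY2 at 0.33 and EPHA4 at 1.03 did not pass (adjusted p = 0.0704 and 0.0750 by edgeR). EPHA4 passed with offsets for GC content and length (1.19) and when each library had to hold 10 counts or more. It had only 44 and 36 counts in KO and 19 and 14 in WT, and its log2 fold change was as low as 0.20 among the alternatives. Over the 5 lists together, 17 of 57 genes tested were higher and 15 were lower, against 20.4% and 19.1% of all genes tested. Of the 10 squamous markers 6 rose and 4 fell, with the rise of their sum mainly in KRT5 and KRT14, and their part in these results was not tested.

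**Figure D4:**
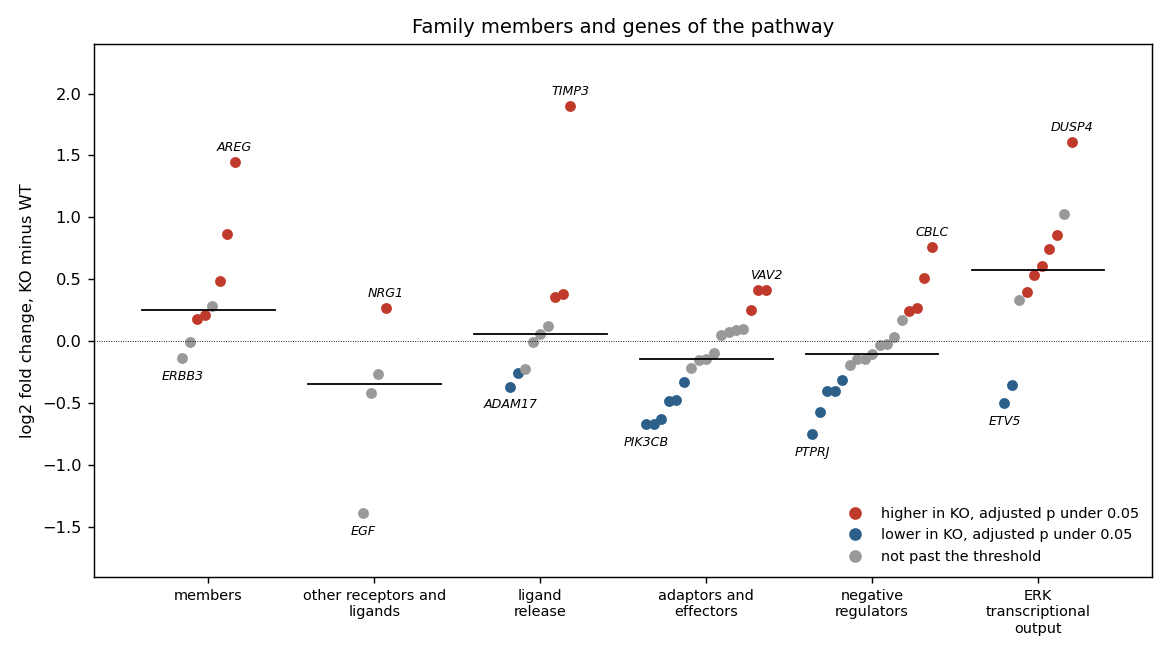
Log2 fold change (KO minus WT, vertical axis) of every tested gene among the 8 members and in the 5 pathway lists, colored by the edgeR call at an adjusted p of 0.05, with a line at the median of each. The median is 0.25 for the members and 0.57 for the ERK output list, and between -0.34 and 0.059 for the other 4 lists.

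The members lie on 6 chromosomes, and 3 ligands are neighbours. On chromosome 4 the tested genes run CXCL2, MTHFD2L, EPGN, EREG, AREG, BTC, PARM1 in the GENCODE order, and the adjacent EREG and AREG were both higher in KO cells. CXCL2, MTHFD2L, EPGN and BTC did not pass, and PARM1 was lower (log2 fold change -0.82, SE 0.22, adjusted p = 0.00327 by edgeR), a call lost without KO replicate 1 (-0.53, adjusted p = 0.0948) and with limma on log2(RPKM + 0.1). TGFA lies among genes of which 5 of the 6 nearest were higher, against 20.4% of all genes tested. They were ADD2, next to TGFA, at 2.19 on the log2 scale, NAGK at 0.56, SNRPG at 0.39, FAM136A at 0.34 and PCYOX1 at 0.19, of which PCYOX1 lost its call under 7 of the 13 alternatives, among them leaving out KO replicate 2 (0.10) or WT replicate 2 (0.14). Around EGFR, COBL was lower at -1.83 and at -0.74 with limma on log2(RPKM + 1), VOPP1 was lower at -0.18 with its call lost under 6 of the 13 alternatives, and the other 4 did not pass. Over all members, 10 of 36 neighbours that are not members were higher and 4 were lower, with a median log2 fold change of 0.053, where 20.4% of all genes tested were higher and 19.1% were lower.

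**Figure D5:**
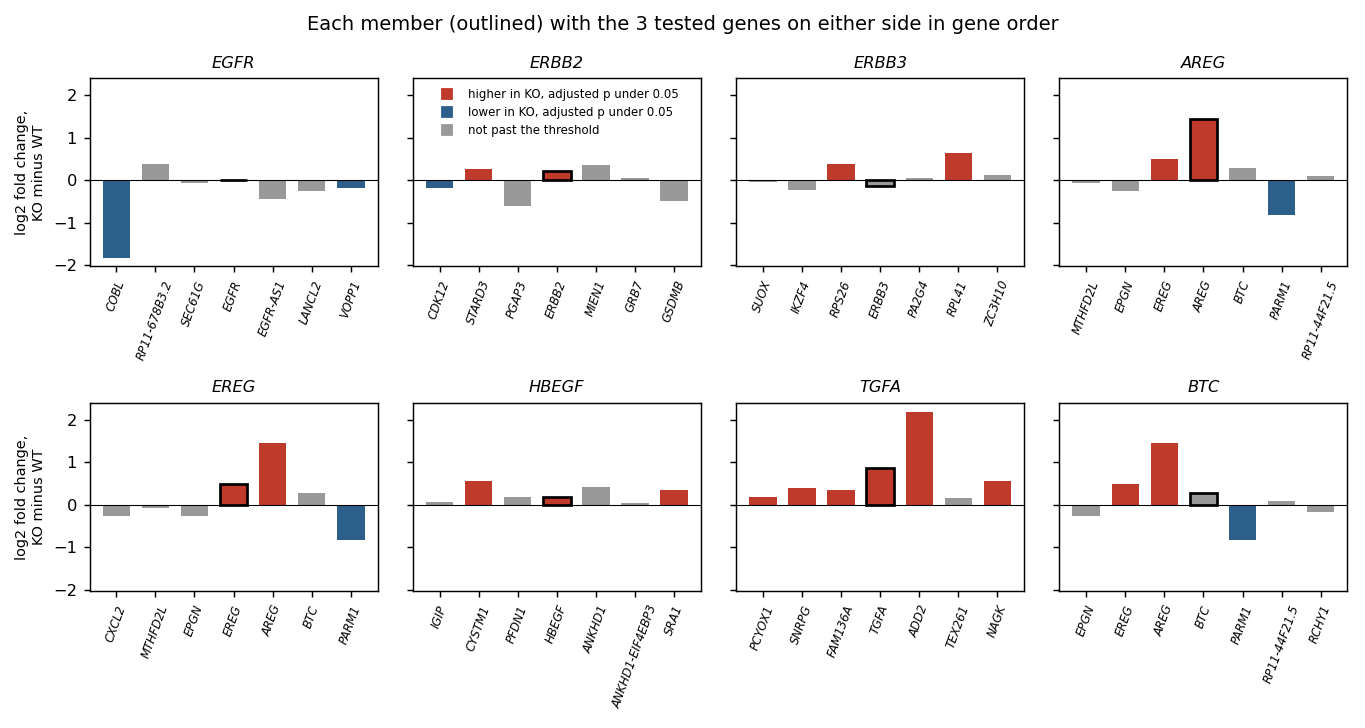
Log2 fold change (KO minus WT, vertical axis) of each member, outlined, and of the 3 nearest tested genes on each side in gene order, colored by the edgeR call at an adjusted p of 0.05. Bars around TGFA are all above 0, with ADD2 at 2.19 above TGFA itself, and the longest bars around EGFR and ERBB3 are COBL at -1.83 and RPL41 at 0.64.

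Likeness of pattern was measured for the receptor and the ligand that changed most, as the distance between centered log2(CPM + 0.1) values over the 4 libraries, among 12536 genes of sufficient level. Nearest to AREG were PORCN at a distance of 0.063, LEPREL1 at 0.11 and MMP2 at 0.13, and 1 gene lay within 0.1. For ERBB2 the nearest were ZMIZ1 at 0.026, SLC27A3 at 0.033 and PAQR4 at 0.034, and 93 genes lay within 0.1. With 4 libraries in 2 groups, such distances mostly order genes by the size of the difference between groups.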

How the data were processed

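Members and gene lists were chosen with earlier results of these data known. The authors deposited raw counts per gene, without normalization, and RPKM values made from them (each equals its count over gene length and library total to within 1.8e-05%). Reads were 50 nt long. The submitters' processing notes name CASAVA, STAR 2.5, HTSeq, edgeR 3.16.5, DESeq2 and the build hg19, without roles. The setting for strand is not given in the sources used here, so reads shared by copies or by overlapping genes are uncertain.

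From the deposited counts, genes were filtered with filterByExpr, libraries were scaled by TMM (factors 0.975 to 1.03), and KO was compared with WT by the quasi-likelihood test of edgeR 4.0.16 in R 4.3.3 with no term for replicates. Benjamini-Hochberg adjustment ran over 15104 genes. Standard errors are the log2 fold change over the root of F, and the biological coefficient of variation was 5.88%. Alternatives were DESeq2 1.42.0, its size factors, library totals alone, no filter, 10 counts or more in each library, a replicate block, limma 3.58.1 on log2(RPKM + 1) and log2(RPKM + 0.1), spline offsets for GC content and length, which had values for 97.2% of tested genes, and leaving out each library. Replicate pairs differed by more than sampling noise, with a chi-square of 3.48 per degree of freedom for KO and 2.87 for WT. GENCODE release 29 gave gene order, chromosomes and GC content only. Promoter sequences are from RefSeq on GRCh38.p14. The test was checked on simulated counts.

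Named genes were the 8 members, ATAD3A, ATAD3B, the remaining receptors and ligands, from each further list up to 4 past the threshold with the smallest adjusted p and separate groups and up to 2 not past it with the highest level, neighbours, and the 3 nearest profiles. Genes of the pathway lists outside this rule, and markers picked out for their size of change, are said to be named after their values were seen.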

Additional observations from a re-analysis of the deposited data

How the results depend on the processing

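AREG, TGFA and EREG kept their direction and stayed past the threshold under all 13 alternatives, with log2 fold changes of 1.33 to 1.54, 0.77 to 0.96 and 0.36 to 0.78. Of 104 values of members under the alternatives, 79 kept direction and side of the threshold, 18 lost the call and 7 turned sign. The turned values of EGFR were 0.0074 with no filter, 0.0013 with at least 10 counts in every library and 0.15 with offsets for GC content and length, and leaving out a library gave -0.096 to 0.083. Leaving out a library gave -0.092 to 0.83 for BTC. ERBB2 lost its call at 0.21 with DESeq2, 0.15 with library totals alone, 0.14 and 0.15 with limma on log2(RPKM + 1) and log2(RPKM + 0.1) and 0.13 with GC and length offsets, and ranged from 0.12 to 0.31 when a library was left out. HBEGF lost its call at 0.17 with DESeq2, 0.11 with library totals alone, 0.19 with no filter, 0.18 with the replicate block, 0.10 and 0.11 with the limma fits and 0.11 with GC and length offsets, and ranged from 0.16 to 0.20 when a library was left out. Members called higher were therefore 3 with DESeq2, library totals alone and both limma fits, and 3 to 4 when a library was left out.

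The other receptors and ligands had 1 gene lower with library totals alone and 0 to 1 when a library was left out. Ligand release had 0 lower with GC and length offsets. Negative regulators had 3 lower with DESeq2, limma on log2(RPKM + 1) and GC and length offsets, and 3 to 6 when a library was left out. Neighbours had 2 lower with DESeq2 and with no filter, 7 with library totals alone, and 1 to 5 when a library was left out. Signs turned for ADAM10 (0.019), CDK12 (0.026), EPS15 (0.085) and PAQR4 (-0.079) with GC and length offsets, for RHBDF1 with no filter (0.0023) and without a library (-0.088 to 0.085), and for SH3KBP1 with library totals alone (-0.035), both limma fits (-0.034 and -0.037) and without a library (-0.076 to 0.14). Of 831 values of other named genes, 741 kept direction and side, 64 lost the call, 14 gained it and 12 turned sign. The causes were not tested.

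With a replicate block 3009 genes were higher and 2808 lower, against 3074 and 2891 without it. The difference between the KO libraries and that between the WT libraries correlated at -0.064 across genes. With 2 libraries per group, this value cannot tell whether libraries with the same number share more than the number. Among members the block changed the call of HBEGF only (0.18, adjusted p = 0.0697 by edgeR). A fit without a library assumes that the lone library of its group varies like the other group. Depth limits BTC, EPGN, EGF and EPHA4, with under 60 counts per library, and 2 libraries per group limit the rest.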
